A study of Mus musculus with 13 samples.

Results

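Solute carriers are the membrane proteins that move amino acids, sugars, nucleosides, vitamins, ions and metals into and out of cells and organelles. Their genes carry the symbol Slc, a family number and a member number, and they were chosen here by that symbol, without Slc4a1, Slc40a1 and Slc37a4. The array held 324 such genes, each represented by its brightest probe, and the 161 genes with a detection p under 0.01 on at least 2 of 13 arrays are described. They fell into 21 amino acid carriers, 34 mitochondrial carriers of the Slc25 family, 21 metal carriers and 85 others, against 12807 tested features on the whole array. Of the 161 members, 5 bear the name without being carriers, among them the scaffold proteins Slc9a3r1 and Slc9a3r2.

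Illumina bead arrays measured RNA of sorted hematopoietic stem and progenitor cells from mice on a C57BL/6 background. The mutant genotypes concerned c-Cbl, an enzyme that attaches ubiquitin to activated receptor kinases and so limits their signal: A/- cells carried an allele A, which the labels do not spell out, opposite a null allele, -/- cells had no intact allele, and +/+ cells were controls. All populations were sorted as Lineage- c-Kit+ cells. The committed progenitors lacked Sca1 and were megakaryocyte-erythroid progenitors (MEP, CD34- CD16/32-), granulocyte-macrophage progenitors (GMP, CD34+ CD16/32+) and common myeloid progenitors (CMP, CD34+ CD16/32-). The LSK cells carried Sca1 and were long-term stem cells (LTHSC, CD34- Flt3-), short-term stem cells (STHSC, CD34+ Flt3-) and multipotent progenitors (MPP, CD34+ Flt3+). Each population had 1 array of A/- and 1 of +/+ cells, and LTHSC also had 1 of -/- cells. The labels say nothing of separate mice or cultures, so p-values measure only the spread between these arrays. In comparisons of populations, that is the spread of the A/- and +/+ arrays within a population after the genotype effect. It leaves out the differences among populations of the same stage.

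The arrays did not all stand alike. Raw signals had medians of 51.71 to 52.85 on the 3 LTHSC arrays and 148.3 to 191 on the other 10, and between 111 and 141 of the 161 members were detected per array. The erythroid marker genes, 10 measured, had a summed level (log2) of 16.69 and 16.66 on the A/- and +/+ MEP arrays, 14.57 and 12.78 on the A/- and +/+ GMP arrays, and 12.95 to 15.28 elsewhere. Genes of mature neutrophil granules and surface, 12 measured, summed to 11.07 on the A/- MEP array against 16.89 on the +/+ MEP array, to 12.6 on the A/- GMP array against 16.15 on the +/+ GMP array, and to 16.33 to 17.65 on the LSK arrays. Counts of calls that rest on these arrays are given with and without them below. In sorted pools, fewer cells of a type and less RNA per cell cannot be told apart.

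Amino acid carriers of the Slc1, Slc6, Slc7, Slc38 and Slc43 families set which amino acids a cell can take up or exchange, and several sit on lysosomes rather than at the surface. Nearly all Slc25 carriers, called mitochondrial here by family although Slc25a17 is peroxisomal, lie in the inner mitochondrial membrane and pass nucleotides, cofactors and metabolites, among them the glycine and iron from which erythroid cells make heme. Metal carriers include the zinc importers of Slc39, the zinc and manganese exporters of Slc30, the copper carriers of Slc31 and the iron carrier Slc11a2, which lets iron leave the endosome after transferrin uptake.

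Levels are log2 intensities after quantile normalization, on a scale whose dimmest values lay near 4.5. A level was never compared between probes of different genes. Changes are log2 differences from limma fits over the 12 A/- and +/+ arrays with their standard errors, and a gene was called where the p, adjusted by Benjamini-Hochberg over all 12807 features, was under 0.05. If no array of a group detected a probe, the fold is a bound against the dimmest detectable signal.

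Promoters are shown for 4 members on which the population results turn: the glutamine carrier Slc38a5, the mitochondrial glycine carrier Slc25a38 and the manganese exporter Slc30a10, all higher in MEP than in GMP, and the vesicular amine carrier Slc18a2, lower in MEP. Each is the stretch of 250 bases before the first listed start, from RefSeq on GRCm38.p6, and 126 of the 161 members had an entry. Slc38a5 lies at chrX:8271131-8271380, Slc25a38 at chr9:120110132-120110381, Slc30a10 at chr1:185454598-185454847 and Slc18a2 at chr19:59260628-59260877, all on the plus strand. Capitals mark the GATA letters, which were AGATAA or with another first letter TGATAA, or with another last letter AGATAG or with both changed TGATAG, and which erythroid GATA factors are known to bind, and the metal response letters TGCGCNC, on either strand, with overlapping matches run together.
Slc38a5: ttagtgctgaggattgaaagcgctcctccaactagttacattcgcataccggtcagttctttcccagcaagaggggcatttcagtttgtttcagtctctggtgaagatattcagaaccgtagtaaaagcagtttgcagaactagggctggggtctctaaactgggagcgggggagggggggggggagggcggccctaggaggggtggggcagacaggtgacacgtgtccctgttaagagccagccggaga
Slc25a38: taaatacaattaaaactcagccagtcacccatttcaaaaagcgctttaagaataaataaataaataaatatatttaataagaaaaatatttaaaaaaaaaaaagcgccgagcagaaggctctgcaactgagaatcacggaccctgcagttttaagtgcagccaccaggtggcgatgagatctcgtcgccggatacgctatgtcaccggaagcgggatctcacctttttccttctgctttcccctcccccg
Slc30a10: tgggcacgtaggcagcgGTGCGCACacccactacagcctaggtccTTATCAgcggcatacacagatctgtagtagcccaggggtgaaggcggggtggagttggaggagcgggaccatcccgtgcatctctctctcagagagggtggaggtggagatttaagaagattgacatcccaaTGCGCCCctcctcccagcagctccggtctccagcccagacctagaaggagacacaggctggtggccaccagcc
Slc18a2: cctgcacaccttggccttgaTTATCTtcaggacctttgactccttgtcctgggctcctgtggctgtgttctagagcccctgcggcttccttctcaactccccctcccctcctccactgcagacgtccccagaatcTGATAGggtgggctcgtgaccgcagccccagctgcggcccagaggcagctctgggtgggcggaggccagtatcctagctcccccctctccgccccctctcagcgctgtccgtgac
The Slc30a10 stretch held GATA letters once, 205 to 200 bases before the start, and metal response letters in 2 places, 233 to 226 and 73 to 67 bases before it. The Slc18a2 stretch held GATA letters at 230 to 225 and 115 to 110 bases before the start, and the other 2 held neither set. GATA letters stood in 4 of 26 promoters of members called higher in MEP than in GMP (15.4%), in 8 of 29 of those called lower (27.6%) and in 7322 of 27025 promoters of the table (27.1%). Metal response letters stood in 6 of the 26 (23.1%), in 4 of the 29 (13.8%) and in 12.6% of the table. These are matches of letters and not binding sites.

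MEP, which give rise to red cells and platelets, differed most from all other populations. Both MEP arrays lay above all 11 other arrays for 42 of the 161 members (26.1%, against 20.2% of all features) and below them for 37 (23%, against 18.5%). Between MEP and GMP, 69 of 161 members were called (42.9%), 36 higher and 33 lower in MEP, against 33.3% of all features, of which 15.1% were higher and 18.1% lower. Of those called, 7 of the higher and 14 of the lower were undetected in 1 group, and 1 was undetected in both. Some of these had a bound under 1, such as Slc25a43 at 0.87-fold. By class, 7 of 21 amino acid carriers were higher and 4 lower, 7 of 34 mitochondrial carriers higher and 4 lower, 5 of 21 metal carriers higher and 3 lower, and 17 of 85 others higher and 22 lower. The median change was 0.15 over amino acid, 0.23 over mitochondrial, -0.03 over metal and -0.17 over other members, and 0.05 over all features. With arrays scaled to their 75th percentile the split became 44 higher and 25 lower, and that of the other carriers turned to 21 higher and 18 lower. That scaling called 69 members, against 40.8% of all features, and moved the median of all features to 0.3.

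**Figure D1:**
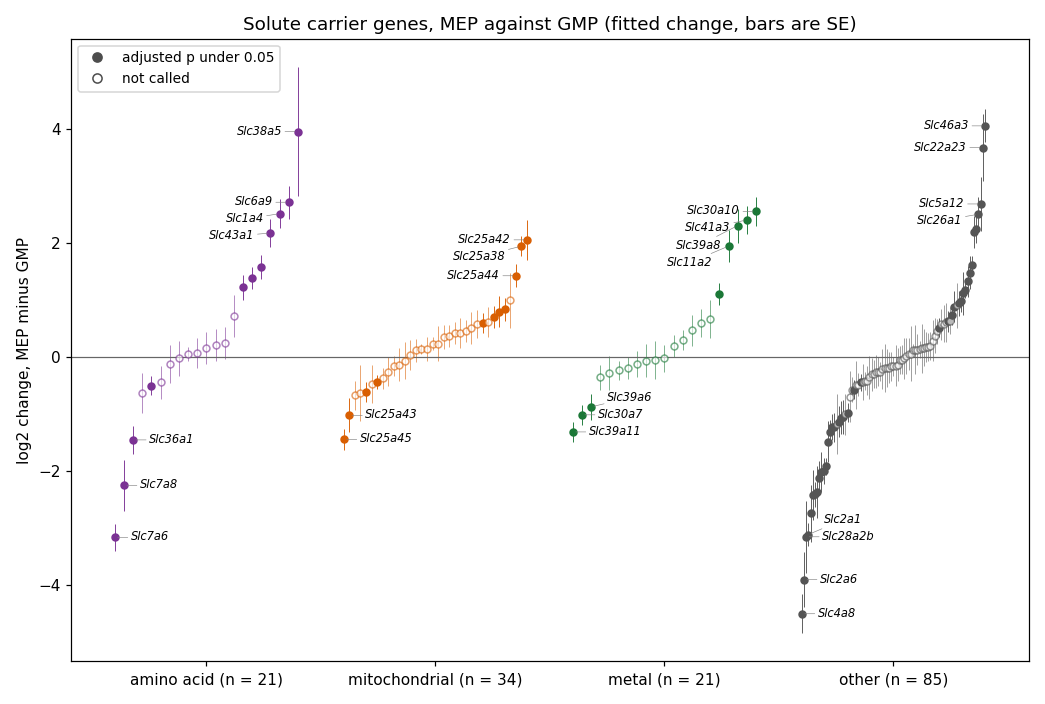
Fitted log2 change, MEP minus GMP, of each of the 161 members on the vertical axis, by class on the horizontal axis and sorted within each class, with standard errors as bars and filled points for an adjusted p under 0.05. Points of genes that 1 group did not detect, such as Slc30a10 and Slc4a8, are fitted values and not bounds. Among genes detected in both, Slc38a5 stands at 3.95, Slc25a42 at 2.05, Slc41a3 at 2.4 and Slc2a1 at -3.12.

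Among amino acid carriers, Slc38a5, a sodium-coupled carrier of glutamine, histidine and serine, had levels of 13.93 and 13.76 on the A/- and +/+ MEP arrays, against 10.95 and 8.84 on the A/- and +/+ GMP arrays. Its fitted change was 3.95 (SE 1.13, adjusted p = 0.0233). The MEP arrays lay above every other array, and the GMP arrays differed from each other by 2.11. Slc43a1, a facilitative carrier of leucine and other large neutral amino acids, had 11.78 and 11.77 in A/- and +/+ MEP, against 9.91 and 9.3 in A/- and +/+ GMP (change 2.17, SE 0.24, adjusted p = 0.000149).

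Slc6a9, the glycine transporter of the plasma membrane, had 7.78 and 7.77 in A/- and +/+ MEP and was detected on neither GMP array, at 4.8 and 5.34. It was at least 3.51-fold higher in MEP (adjusted p = 0.000125). Slc1a4, an exchanger of alanine, serine and cysteine, had 7.86 and 7.93 in A/- and +/+ MEP and was not detected in GMP, at 5.64 and 5.13, so that it was at least 3.8-fold higher (adjusted p = 0.00011). Both carry small neutral amino acids, and for both the paired MEP arrays lay within 0.1 of each other. Slc38a9, a lysosomal carrier that senses arginine for mTORC1, changed by 1.58, Slc7a4 by 1.38 and the aromatic amino acid carrier Slc16a10 by 1.22.

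The amino acid carriers lower in MEP were light chains that pair with Slc3a2 and lysosomal or system A carriers. Slc7a6, which exchanges cationic for neutral amino acids, had 5.02 and 5.59 in A/- and +/+ MEP, where it was not detected, against 8.4 and 8.54 in A/- and +/+ GMP. It was at least 4.3-fold lower in MEP (adjusted p = 2.23e-05), and its 11 other arrays all lay between 8.16 and 8.55. Slc7a8, a carrier of neutral amino acids, had 5.99 and 4.65 in A/- and +/+ MEP, not detected, against 8 and 7.17 in A/- and +/+ GMP, at least 2.33-fold lower (adjusted p = 0.0038). Slc36a1, a proton-coupled carrier of lysosomes, was at least 1.12-fold lower and Slc38a2 changed by -0.51. Slc3a2, the common heavy chain of Slc7a6 and Slc7a8, was not called (change -0.03, SE 0.31). From the list of amino acid response genes, 22 measured, 5 were higher and 5 lower in MEP than in GMP. The asparagine synthetase Asns was higher by 2.25 and Sesn2 by 1.54, whereas the serine synthesis gene Phgdh was lower by 1.33 (change -1.33).

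**Figure D2:**
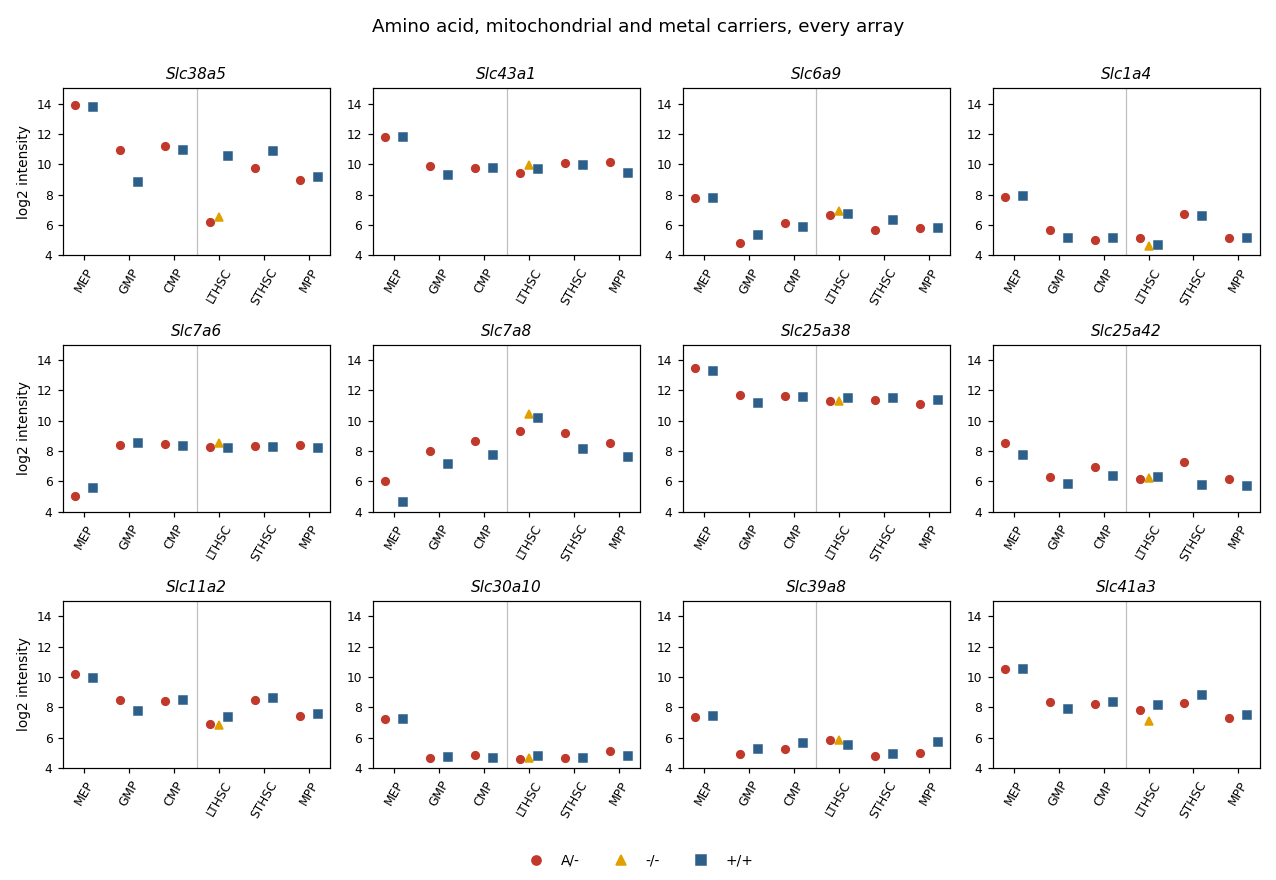
Log2 intensity of 12 amino acid, mitochondrial and metal carriers on the vertical axis, on all 13 arrays, by population, with A/- as circles, -/- as triangles and +/+ as squares. The MEP points stand above all others for 10 of them and below all others for Slc7a6 and Slc7a8, and the A/- and -/- LTHSC points of Slc38a5 lie near 6 while the +/+ point lies above 10.

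Among mitochondrial carriers, Slc25a38, which brings glycine into mitochondria for the first step of heme synthesis, had 13.47 and 13.26 in A/- and +/+ MEP, against 11.67 and 11.18 in A/- and +/+ GMP. Its change was 1.94 (SE 0.18, adjusted p = 6.4e-05), and the 11 arrays other than MEP lay between 11.09 and 11.67. Slc25a42, a carrier of coenzyme A, had 8.5 and 7.73 in A/- and +/+ MEP, against 6.31 and 5.82 in A/- and +/+ GMP (change 2.05, SE 0.35, adjusted p = 0.00169). Slc25a44, which carries branched-chain amino acids, changed by 1.42, the folate and FAD carrier Slc25a32 by 0.83, the pyrimidine nucleotide carrier Slc25a33 by 0.79, the citrate carrier Slc25a1 by 0.7 and Slc25a16 by 0.59. The largest decrease was that of Slc25a45, with 9.48 and 9.72 in A/- and +/+ MEP against 11.09 and 11.01 in A/- and +/+ GMP (change -1.45, SE 0.19). For Slc25a11, the oxoglutarate carrier, called lower by 0.45 (change -0.45), 1 further probe gave 0.32 and another -0.31.

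Neither iron carrier of mitochondria was called higher in MEP. Slc25a37, the mitoferrin of erythroid cells, had 9.62 and 9.45 in A/- and +/+ MEP, against 9.1 and 9.16 in A/- and +/+ GMP (change 0.41, SE 0.19, adjusted p = 0.128). It was brightest in LTHSC, at 10.13, 10.16 and 9.98 on the A/-, -/- and +/+ arrays. Slc25a28, the mitoferrin of most other cells, changed by -0.62 (SE 0.18, adjusted p = 0.0251), with 11.22 and 11.12 in A/- and +/+ MEP against 11.82 and 11.74 in A/- and +/+ GMP. Slc25a39, the mitochondrial glutathione carrier, was not called (change -0.16, SE 0.18).

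From the list of heme synthesis and iron genes, which holds 5 members and Slc40a1, 17 of 26 measured genes were higher in MEP than in GMP and 3 lower, with a median change of 1.46 against 0.05 over all features. The erythroid first enzyme Alas2 was higher by 2.89, Cpox by 3.06, Uros by 2.43, Fech by 2.18 and the transferrin receptor Tfrc by 1.81. The lower genes were Alas1, the first enzyme of other tissues, at -2.87, the iron regulator Hfe at -3.25 and Slc25a28. Slc40a1, the cellular iron exporter and no member here, changed by 2.38.

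Among metal carriers, Slc11a2 had 10.19 and 9.91 in A/- and +/+ MEP, against 8.49 and 7.73 in A/- and +/+ GMP (change 1.94, SE 0.28, adjusted p = 0.000605). Its further probes gave changes of 2.64 and 2.74. Slc30a10, a manganese exporter, was detected on the MEP arrays alone, at 7.24 and 7.2 in A/- and +/+, against 4.64 and 4.69 in A/- and +/+ GMP, at least 2.38-fold higher in MEP. As it passed the filter through these 2 arrays alone, it had to be higher there, and no test is given. Slc39a8, an importer of zinc and manganese, had 7.36 and 7.41 in A/- and +/+ MEP, against 4.95 and 5.23 in A/- and +/+ GMP, where it was not detected, at least 2.68-fold higher (adjusted p = 0.000342).

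Slc41a3, a magnesium carrier, had 10.55 and 10.49 in A/- and +/+ MEP, against 8.34 and 7.9 in A/- and +/+ GMP (change 2.4, SE 0.24). Slc11a1, the metal carrier of phagosomes, changed by 1.1, but its further probes gave 0.47 and 0.05. Lower in MEP were the zinc carriers Slc39a11 (change -1.32), Slc30a7, which loads the Golgi (change -1.02), and Slc39a6 (change -0.88). The metallothionein Mt2, from the zinc response list, was higher by 3.52, while its relative Mt1 changed by 1 (adjusted p = 0.0511) and Slc30a1, the zinc exporter of the plasma membrane, by 0.66 (adjusted p = 0.164).

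Glucose carriers parted between branches. Slc2a1, the common glucose transporter, had 6.45 and 6.55 in A/- and +/+ MEP, against 9.47 and 9.78 in A/- and +/+ GMP (change -3.12, SE 0.21, adjusted p = 1.56e-05). Its 11 arrays other than MEP lay between 9.47 and 10.53. Slc2a6 had 4.56 and 6.21 in A/- and +/+ MEP, not detected, against 9.08 and 9.51 in A/- and +/+ GMP, at least 7.62-fold lower (adjusted p = 0.000277).

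In the other direction, Slc2a8 had 8.99 and 8.79 in A/- and +/+ MEP, against 6.63 and 6.78 in A/- and +/+ GMP (change 2.18, SE 0.28). Slc2a3, the high-affinity glucose transporter, changed by 0.94 (SE 0.22, adjusted p = 0.0104). The urate and fructose carrier Slc2a9 was called lower, with both MEP arrays below detection, but its bound was 0.896-fold, so that no decrease is shown. From the glycolysis list, 20 measured and including Slc2a1 and Slc2a3, 4 genes were higher in MEP and 8 lower. Pgam1 changed by -3.1 and Pgk1 by -1.11, and Pfkm by 1.88 and Hk1 by 1.24. The 2 enzymes Pkm and Hk3 differed between the MEP arrays: Pkm had 6.9 in A/- and 10.38 in +/+ MEP, and Hk3 4.82 and 9.36.

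Nucleoside carriers went both ways, and the vesicular carriers Slc18a2 and Slc17a9 were lower in MEP. Slc29a1, the equilibrative nucleoside transporter, had 11.61 and 11.54 in A/- and +/+ MEP, against 10.05 and 9.88 in A/- and +/+ GMP (change 1.61, SE 0.16). The concentrative purine nucleoside carrier Slc28a2 had 4.64 and 5.4 in A/- and +/+ MEP, not detected, against 7.18 and 8.36 in A/- and +/+ GMP, at least 2.64-fold lower (adjusted p = 0.00236). Slc28a2b, a close copy whose probe may share signal with it, had 4.44 and 7.08 in A/- and +/+ MEP, against 8.24 and 9.59 in A/- and +/+ GMP (change -3.16, SE 0.63). Slc18a2, which loads amines into vesicles, had 4.78 and 6.34 in A/- and +/+ MEP, not detected, against 8.3 and 7.55 in A/- and +/+ GMP, at least 2.95-fold lower (adjusted p = 0.00333). For Slc2a6, Slc28a2b, Slc18a2 and Slc17a9 the +/+ MEP array, on which the neutrophil list summed to 16.89, was the brighter of the pair by over 1.5. Neither MEP array detected Slc2a6 or Slc18a2, so that their gaps lie below detection. Slc28a2b and Slc17a9 were detected on the +/+ MEP array alone, at least 1.65-fold and 1.52-fold brighter. The part of the neutrophil genes in these gaps was not tested. All 4 mast cell and basophil markers measured were lower in MEP than in GMP.

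Large changes were also found in carriers outside these groups. Slc46a3, a lysosomal carrier, had 11.58 and 11.49 in A/- and +/+ MEP, against 7.66 and 7.31 in A/- and +/+ GMP (change 4.05, SE 0.29, adjusted p = 2.09e-05). Slc4a8, a sodium-driven chloride and bicarbonate exchanger, had 5.15 and 5.92 in A/- and +/+ MEP, not detected, against 10.01 and 10.07 in A/- and +/+ GMP, at least 12.8-fold lower (adjusted p = 2.47e-05). Slc22a23 changed by 3.67, the lactate carrier Slc5a12 by 2.68 and the choline carrier Slc44a1 by 2.24. Its relative Slc44a2 went the other way (change -2.41, SE 0.22), as did Slc17a9, which loads nucleotides into vesicles (change -2.42), and Slc24a3, a sodium, calcium and potassium exchanger (change -2.03). Slc26a1, a sulfate carrier, was at least 2.13-fold higher in MEP, and the fatty acid carrier Slc27a1 at least 1.36-fold lower. Slc26a1 was detected on 3 arrays, both of MEP and that of +/+ LTHSC, so that it passed the filter through MEP.

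**Figure D3:**
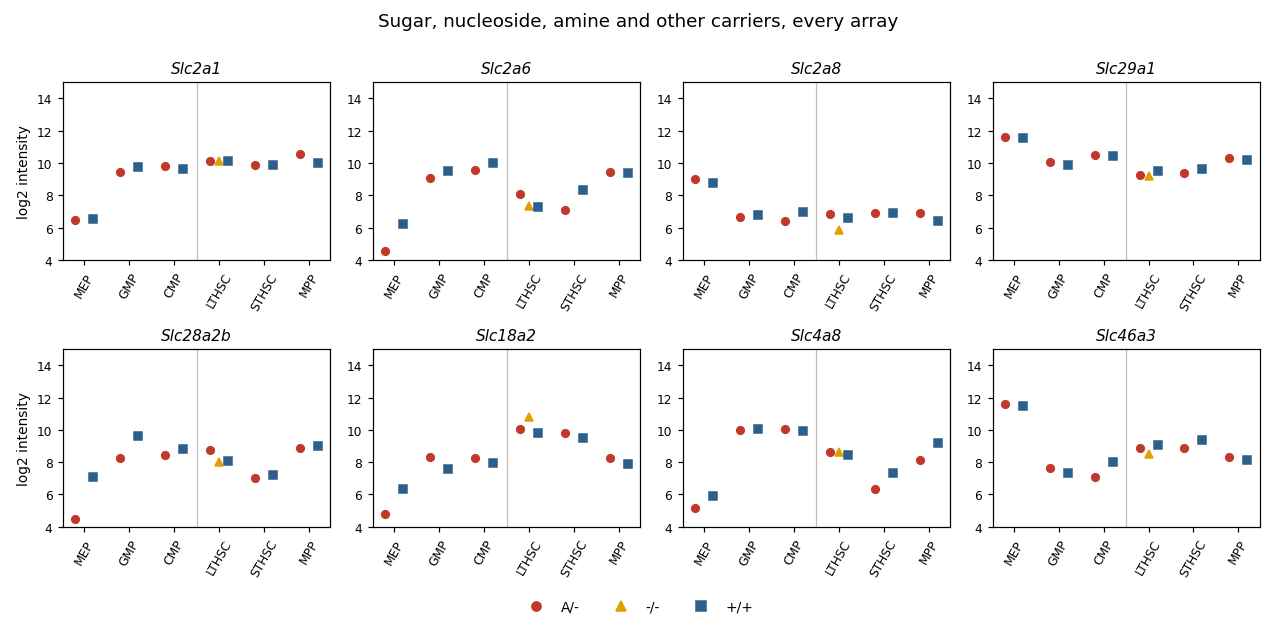
Log2 intensity of 8 sugar, nucleoside, amine and other carriers on the vertical axis, on all 13 arrays, by population, with A/- as circles, -/- as triangles and +/+ as squares. Slc2a1 stays between 9.47 and 10.53 outside MEP and lies at 6.45 and 6.55 in MEP, and Slc46a3 lies above 11 in MEP alone.

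Without the +/+ MEP array 52 members were called between MEP and GMP, all among the 69, against 25.6% of all features, and without the A/- GMP array 57, of which 54 were among them, against 25.5%. The change of Slc38a5 was 4.37 without the +/+ MEP array and 5.53 without the A/- GMP array, and that of Slc46a3 4.2 and 4.36. Of 32 further probes of called members, from 24 genes, 31 had the sign of the brightest probe in this comparison. All 24 changes named for this comparison by size kept their direction and stayed called under each alternative that could be computed. Slc30a10 and Slc26a1 are among them and passed the filter through MEP, so that their staying called adds no support.

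Committed progenitors were then set against LSK cells, the earlier stage. The p-values of this comparison do not test whether the populations of a stage are alike. Here 87 of 161 members were called (54%, against 45.9% of all features), 49 higher and 38 lower in committed progenitors, where 22.3% of all features were higher and 23.6% lower. Of those called, 13 of the lower and 1 of the higher were undetected in 1 group. By class, 14 of 34 mitochondrial carriers were higher and 7 lower, 9 of 21 metal carriers higher and 3 lower, 7 of 21 amino acid carriers higher and 5 lower, and 19 of 85 others higher and 23 lower. The split moved with the scaling, to 67 higher and 29 lower at the 75th percentile, where the median of all features was 0.27. By cyclic loess it was 37 higher and 47 lower. At the 75th percentile 96 of 161 members were called, against 60% of all features, so that the members' share was no larger. By cyclic loess 84 were called, against 44.5% of all features. The excess of higher over lower calls held under all 3 for mitochondrial and metal carriers, and turned for amino acid carriers by cyclic loess (3 higher, 5 lower) and for the others at the 75th percentile (27 higher, 22 lower).

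The count depended on MEP, for members as for the whole array. Without the MEP arrays 50 members were called, 23 higher and 27 lower, of which 39 were among the 87, against 24.8% of all features. Without the LTHSC arrays, whose raw signals lay on another scale, 69 were called, of which 61 were among them, against 36.4% of all features. Markers of mature cells moved in the same comparison: 10 of 12 neutrophil genes were lower in committed progenitors (median change -4.18), 5 of 7 macrophage genes lower (-0.78), 6 of 6 B and T cell genes lower (-1.19), and of 10 erythroid genes 6 were higher and 1 lower (1.46). Their part in the changes of members was not tested. In 7 members all committed arrays lay above all LSK arrays of the fit (4.35%, against 2.74% of features), and in 9 below (5.59%, against 5.22%). Of 32 further probes of called members, 4 had the opposite sign to the brightest probe in this comparison, among them probes of Slc22a18 (0.23 against -1.36), Slc2a9 (0.27 against -1.07) and Slc25a36 (0.68 against -0.54).

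Among these, the copper importer Slc31a1 had a lowest, median and highest level of 9.92, 10.06 and 10.32 on the 6 committed arrays, against 8.98, 9.39 and 9.6 on the 6 LSK arrays (change 0.74, SE 0.1, adjusted p = 0.000456). The aromatic amino acid carrier Slc16a10 had 8.28, 8.62 and 9.92 on committed arrays, against 6.76, 7.7 and 8.13 on LSK arrays (change 1.37, SE 0.13, adjusted p = 6.36e-05). For neither gene did the groups overlap. The others of this kind were the thiamine carrier Slc19a2 (change 0.79), the mitochondrial carriers of S-adenosylmethionine, Slc25a26 (0.57), and of ADP and ATP, Slc25a5 (0.34), Slc35a4 (0.28) and Slc66a1 (0.62), whose groups nearly touched.

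In the opposite direction, Slc2a1 had a lowest, median and highest level of 6.45, 9.54 and 9.81 on committed arrays, against 9.87, 10.05 and 10.53 on LSK arrays (change -1.47, SE 0.12, adjusted p = 3.07e-05). Without MEP its change was -0.42, still called (adjusted p = 0.0489). Slc2a3 had 9.41, 10.15 and 10.91 on committed arrays, against 11.03, 11.24 and 11.51 on LSK arrays (change -1.07, SE 0.13). The committed arrays of both glucose transporters thus all lay below the LSK arrays, as did those of the vitamin C carrier Slc23a2 (change -1.07), the taurine carrier Slc6a6 (change -0.45), Slc50a1, Slc16a9, Slc22a17, Slc15a3 and Slc25a27. Slc25a27 was detected on 2 LSK arrays alone, and with that entered the set as one that had to be lower in committed progenitors. Slc16a9, Slc22a17 and Slc15a3 were also detected on LSK arrays alone and had to be lower in the same way.

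**Figure D4:**
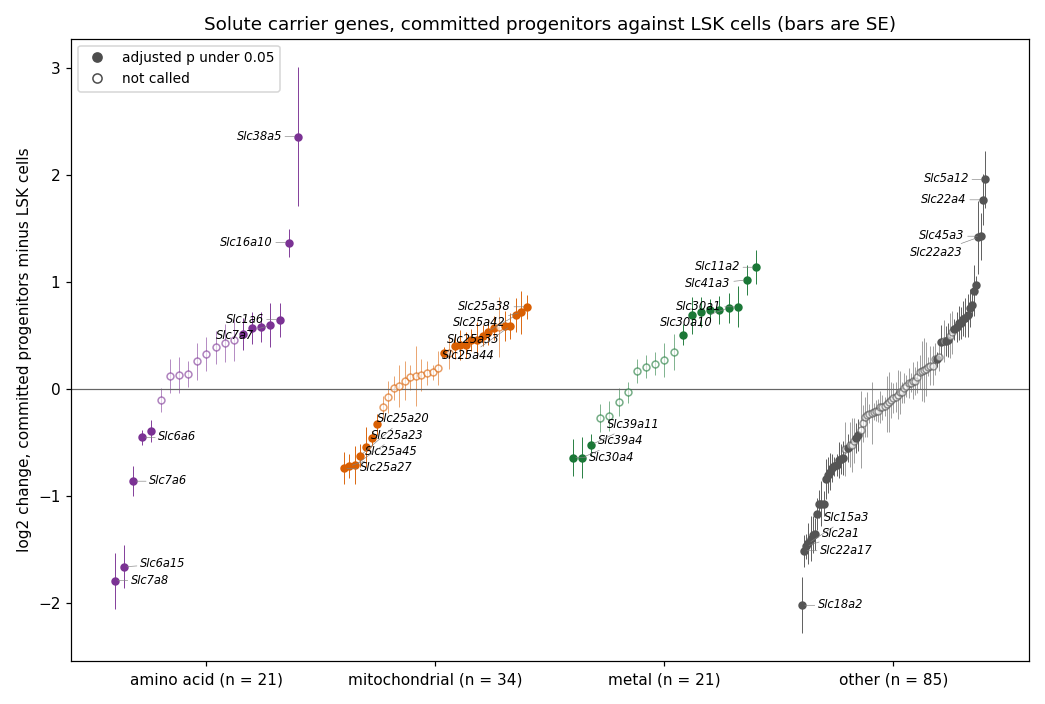
Fitted log2 change, committed progenitors minus LSK cells, of each of the 161 members on the vertical axis, by class on the horizontal axis and sorted within each class, with standard errors as bars and filled points for an adjusted p under 0.05. Points of genes that 1 group did not detect are fitted values and not bounds. The mitochondrial carriers keep within -0.74 and 0.77, while the amino acid carriers run from -1.79 for Slc7a8 to 2.36 for Slc38a5.

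Among the amino acid carriers lower in committed progenitors, Slc7a8 had a lowest, median and highest level of 4.65, 7.44 and 8.64 on committed arrays, against 7.6, 8.86 and 10.16 on LSK arrays (change -1.79, SE 0.26). Without MEP its change was -0.94. Slc6a15, a carrier of branched-chain amino acids and proline, was detected on no committed array and on 5 of 6 LSK arrays, at least 1.59-fold lower. It was brightest in LTHSC at 7.63, 8.16 and 7.9 on the A/-, -/- and +/+ arrays. Slc18a2 had 4.78, 7.74 and 8.3 on committed arrays, against 7.9, 9.63 and 10.02 on LSK arrays (change -2.02, SE 0.26), and without MEP changed by -1.2. Slc15a3, a peptide and histidine carrier of lysosomes, was at least 1.5-fold lower, Slc16a9 at least 1.67-fold and Slc22a17 at least 1.31-fold, all with no committed array detected. Without LTHSC the changes of Slc16a9 and of the fatty acid carrier Slc27a6 were -0.78 and -0.71, against -1.35 and -1.4 with them. Slc6a15, Slc15a3, Slc16a9, Slc22a17 and Slc27a6 passed the filter through LSK arrays alone. They thus had to be lower in committed progenitors, and no test is given.

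Among the larger increases, Slc22a4, the ergothioneine carrier, had a lowest, median and highest level of 6.88, 7.45 and 8.47 on committed arrays, against 5.16, 5.6 and 7.13 on LSK arrays (change 1.77, SE 0.24, adjusted p = 0.000497). It was brightest on the +/+ GMP array. Slc45a3 had 7.63, 8.51 and 8.96 on committed arrays, against 5.99, 6.12 and 8.88 on LSK arrays (change 1.43, SE 0.22), with both STHSC arrays high, and without STHSC changed by 2.33. The folate carrier Slc46a1 (change 0.92) was no longer called without LTHSC (adjusted p = 0.103) or without GMP (adjusted p = 0.0591). Slc38a5, Slc22a23, Slc11a2, Slc41a3 and Slc25a38 were called at 2.36, 1.42, 1.14, 1.02 and 0.77. Without MEP their changes were 1.24, 0.27, 0.55, 0.24 and 0.15, none called, with adjusted p of 0.24, 0.631, 0.0611, 0.322 and 0.404. Slc5a12 and Slc29a1 stayed called without MEP, at 1.07 and 0.52 against 1.96 and 0.97.

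The smaller changes of the mitochondrial carriers included the dicarboxylate carrier Slc25a10 (change 0.53), the glutathione carrier Slc25a39 (0.46) and the aspartate and glutamate carriers Slc25a12 (0.41) and Slc25a13 (0.46). A further probe of Slc25a12 gave 0.1. The acylcarnitine carrier Slc25a20 was lower (change -0.62), with -0.13 at its further probe. All 4 measured genes of the metallothionein and zinc response list were higher in committed progenitors, Mt2 by 1.83, Mt1 by 1.35, Slc30a1 by 0.77 and the zinc sensor Mtf1 by 0.54. Slc39a3, Slc31a2 and Slc39a7 were called higher among metal carriers, at 0.72, 0.74 and 0.51, and Slc39a4 lower, at -0.64. Slc30a4 passed the filter through LSK arrays alone, and no committed array detected it. Its bound was 0.691-fold, so that no decrease is shown.

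Within LSK cells, LTHSC stood furthest apart. Their 3 arrays lay above all 10 others for 18 members (11.2%, against 9.09% of features) and below them for 15 (9.32%, against 9.61%). Among the 18 were Slc7a8, Slc6a15, Slc6a6 and Slc38a2 of the amino acid carriers, both mitoferrins, Slc25a37 and Slc25a28, and Slc18a2, Slc27a6 and Slc16a9 among others. Slc16a9 had 8, 7.96 and 8.01 in A/-, -/- and +/+ LTHSC and 5.15 to 6.58 elsewhere. Those below included the mitochondrial carriers Slc25a5, Slc25a10, Slc25a26 and Slc25a39 and the metal carriers Slc11a2, Slc30a1 and Slc39a3. As all LTHSC arrays had the lower raw signal, population and raw scale cannot be told apart here.

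STHSC lay above all others for 6 members (3.73%, against 2.78% of features) and below for 4 (2.48%, against 1.5%). The 6 included Slc14a2, which entered the set through its STHSC arrays alone, the urea carrier Slc14a1, the carnitine carrier Slc22a5, the sodium and calcium exchanger Slc8a1 and Slc2a3. Among the 4 were Slc25a37 and the glutamine carriers Slc38a1 and Slc38a7.

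The mutant genotype was then compared within populations, over 6 pairs of A/- and +/+ arrays. No member was called, 0 of 161, against 76 of all features (0.593%), of which 0.164% were higher and 0.429% lower in A/- cells. An unadjusted p under 0.05 was reached by 15 members (9.32%) against 15.6% of all features. In committed progenitors 0 members were called, against 0.476% of features, in LSK cells 0 against 0%, and for the difference of the genotype effect between them 0 against 0.00781%. The unadjusted shares there were 14.3% of members against 18.6% of features, 4.35% against 7.01%, and 7.45% against 8.36%. In the genotype comparison the solute carriers as a set showed no larger share of changes than other features.

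The lowest adjusted p over the 6 pairs was that of Slc15a2, which takes up di- and tripeptides. It had 8.18 in A/- against 6.62 in +/+ STHSC, 8.46 against 6.69 in MPP, 7.76 against 6.55 in CMP, 7.44 against 6.15, not detected, in MEP and 7.37 against 5.99 in GMP. In LTHSC it had 7.19 in A/- and 9.68 in -/- cells, against 7.49 in +/+ cells. The A/- array was thus the brighter of 5 pairs and the dimmer of 1, and its change was 1.15 (SE 0.25, adjusted p = 0.0878). Without LTHSC the change was 1.44 (SE 0.14, adjusted p = 0.00182).

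The amino acid carriers Slc7a8 and Slc6a15, named after their values were seen, had the same shape. Slc7a8 differed between A/- and +/+ by 1.06 in STHSC, 0.95 in MPP, 0.94 in CMP, 1.35 in MEP and 0.82 in GMP, but by -0.88 in LTHSC (change 0.71, SE 0.26, adjusted p = 0.243). Slc6a15 differed by 0.93 in STHSC, 1.08 in MPP, 1.05 in CMP, 0.55 in MEP and 0.7 in GMP and by -0.27 in LTHSC (change 0.67, SE 0.2, adjusted p = 0.173). Without LTHSC both were called, at 1.02 (adjusted p = 0.00589) and 0.86 (adjusted p = 0.0271) and with Slc15a2 and Slc66a2 (0.39, adjusted p = 0.0378) made up the 4 of 161 members called then, where 3.69% of all features were called, so that the members' share was no larger than that of the whole array. In the same pairs the neutrophil markers had median differences of -1.28 in STHSC, -1.21 in MPP, -1.5 in CMP, -5.46 in MEP, -3.37 in GMP and 0.24 in LTHSC, and their part in these results was not tested. Slc6a15 was dim in the committed progenitors, where no array detected it.

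Of the 161 members, 7 differed in 1 direction in all 6 pairs (4.35%, against 8.61% of features), and none passed the threshold. Of these, 6 were higher in A/- (against 4.75% of features) and 1 lower (against 3.87%). Slc66a2 had differences of 0.08 to 0.47 (change 0.34, SE 0.08, adjusted p = 0.112). The chloride carriers Slc12a2 and Slc12a3 had 0.34 (adjusted p = 0.207) and 0.31 (adjusted p = 0.21). The glutamate carrier Slc1a7, detected on 3 arrays, had 0.49. In LTHSC and CMP it was detected in A/- but not in +/+ cells, and no MEP or GMP array detected it. As A/- arrays carried Slc1a7 through the filter, a higher level in A/- was favoured and no test is given. Slc37a1 and Slc35a4 had 0.25 (adjusted p = 0.381) and 0.09 (adjusted p = 0.504). Slc6a13, a GABA carrier, was the one lower in A/- throughout, at -0.52 (SE 0.18, adjusted p = 0.226), with a difference of -1.58 in MPP.

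**Figure D5:**
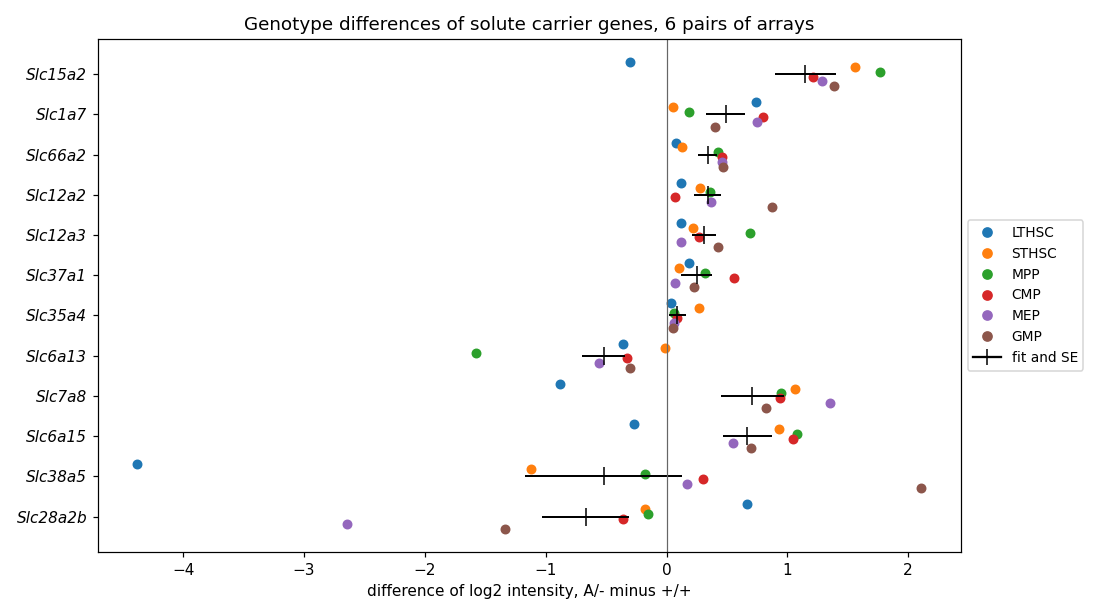
Difference of log2 intensity, A/- minus +/+, on the horizontal axis in each of 6 populations (coloured points) for 12 members, with the fitted change and its standard error in black. The points of Slc15a2, Slc7a8 and Slc6a15 lie right of 0 but for LTHSC, and those of Slc38a5 spread from -4.38 in LTHSC to 2.11 in GMP.

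Within the committed progenitors the smallest p values belonged to Slc66a2 (change 0.46, adjusted p = 0.0818), the potassium and chloride carrier Slc12a7 (1.1, adjusted p = 0.0943), Slc28a2b (-1.45, adjusted p = 0.124) and Slc15a2 (1.3, adjusted p = 0.136). Slc12a7 had 7.39 in A/- against 6.34 in +/+ CMP, 6.74 against 5.35, not detected, in MEP and 6.19 against 5.33 in GMP. It was detected on 11 arrays, and its level on the +/+ GMP array was its lowest. Of the Slc25 family, the peroxisomal Slc25a17 had -0.47, Slc25a1 0.42 and the phosphate carrier Slc25a3 -0.24, none called. In LSK cells the smallest p was that of Slc44a2 (change 0.37, adjusted p = 0.539), and every adjusted p of the difference between committed progenitors and LSK cells was 0.573 or above among members.

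Single pairs of arrays have no test, and the counts are of members whose levels differed 2-fold or more, the higher one being detected. In LTHSC 1 member was higher in A/- than in +/+ (0.621%, against 2.19% of features) and 3 lower (1.86%, against 1.53%). In STHSC 4 were higher (against 1.01% of features) and 3 lower (against 3.05%), in MPP 6 higher (against 1.37%) and 3 lower (against 4.92%), and in CMP 4 higher (against 1.21%) and 2 lower (against 1.77%). In MEP 3 were higher (against 1.75%) and 2 lower (against 4.35%), and in GMP 6 higher (against 4.04%) and 5 lower (against 4.11%). Counts so small move by 1 member at a time.

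The largest single difference was that of Slc38a5 in LTHSC, at 6.19 in A/- and 6.54 in -/- cells, against 10.57 in +/+ cells. Both differences, -4.38 and -4.03, use the same +/+ array. In LTHSC, Slc22a23 and Slc5a12 were detected on the +/+ array alone. The erythroid markers had median differences of -1.48 and -1.31 in the same A/- and -/- comparisons with that array. The part of erythroid RNA in these differences was not tested. Slc15a2 differed by 2.18 between -/- and +/+ LTHSC and by 2.49 between -/- and A/- LTHSC. Between -/- and +/+ LTHSC 2 members were at least 2-fold higher (against 1.13% of features) and 3 lower (against 2.26%), and between -/- and A/- LTHSC 2 were higher (against 1.02%) and 3 lower (against 2.74%).

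In GMP the A/- array was higher for Slc38a5 (10.95 against 8.84 in +/+), for the urea carrier Slc14a1 of red cells (10.47 against 8.42), for Slc22a23, detected in A/- alone (at least 1.53-fold), and for Slc5a12 (7.52 against 6.21). The erythroid markers had a median difference of 1.96 between these arrays and the neutrophil markers of -3.37, and their part in the difference was not tested. Lower in A/- GMP were the anion exchanger Slc26a6 (6.15 against 7.61 in +/+), Slc28a2b (8.24 against 9.59) and Slc28a2 (7.18 against 8.36). In MEP, where the neutrophil markers differed by a median of -5.46 and the erythroid markers by 0.05, Slc28a2b and Slc17a9 were detected in +/+ alone, at least 1.65-fold and 1.52-fold lower in A/-. Slc12a7 and Slc46a1 were detected in A/- MEP alone, at least 1.29-fold and 1.56-fold higher than in +/+.

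The filter on detection set which carriers could be described. It was passed by 34 of 46 mitochondrial and 21 of 30 metal carriers on the array, but by 21 of 48 amino acid carriers and 85 of 200 others, and 95 members were detected on all 13 arrays. Just inside it, 9 members were detected on exactly 2 arrays, among them Slc30a10 and the urea carrier Slc14a2. Slc14a2 was detected only in STHSC at 6.98 and 6.66 in A/- and +/+. Just outside, 18 genes were detected on 1 array, among them the cystine carrier Slc7a11, which reached 5.87, and Slc41a1, which reached 6.44, and 145 were detected on none. A member that passed through 1 bright population had to differ between populations, so the shares called among the 161 carry that selection.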

How the data were processed

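Per the labels' protocols, RNA of the 13 sorted samples was column-purified, amplified to biotinylated cRNA and hybridised to 1-colour bead arrays. The authors deposited an intensity and a detection p-value for each of 45281 probes, without stated normalization. The authors' processed intensity values, also deposited, served as an alternative, and not for committed progenitors against LSK cells, since their LTHSC arrays lie on another scale.

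Background was corrected from the detection p-values with an offset of 16 and arrays were quantile-normalized and taken to log2 in limma 3.58.1 (R 4.3.3). Each gene took its brightest probe, and 12807 features with a detection p under 0.01 on 2 or more arrays were tested. A/- against +/+ was fitted with population as a block over 6 pairs, populations with genotype as a covariate over 12 arrays. Adjusted p are limma's with Benjamini-Hochberg adjustment over all tested features. Gene symbols came from the platform annotation. In each population comparison 12 members at most each way were named by size, and in each genotype comparison up to 10 by p, besides those alike in all pairs. The number of arrays limits the precision. The fits were tested on simulated data. The members and gene lists were chosen with earlier results of these data known, and genes outside the rules were named after their values were seen. Alternatives covered scaling, background, filter, probe choice, variance trend, block and each population left out.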

Additional observations from a re-analysis of the deposited data

Results flagged for a closer look

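In 3 of the 7 members that differed in 1 direction over all 6 pairs of A/- and +/+ arrays, 1 pair stood apart from the other 5. Chance sets apart about 1 set in 20 where sets are not selected. These 7 were picked for differences of 1 sign, so that rate cannot be set against their count. For Slc12a2, a sodium, potassium and chloride carrier, GMP had a difference of 0.87. For Slc6a13, a GABA carrier, MPP had -1.58. For Slc35a4, STHSC had 0.27.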

How the results depend on the processing

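Direction held under each alternative for the changes named by the rules of size and p, and most other genes of the text were not followed through the alternatives. For members that passed the filter through 1 side of a comparison, a kept direction adds no support. Over the 6 pairs of A/- and +/+ arrays, 0 members were called, against 1 with 75th percentile scaling (Slc15a2; 0.82% of all features), 5 without LTHSC and MEP together (3.89% of features), and 0 to 4 with 1 population left out, the 4 without LTHSC (3.69% of features). In committed progenitors 75th percentile scaling called 2 (2.11% of features), Slc12a7 at 1.17 (adjusted p = 0.0442) and Slc66a2 at 0.6 (adjusted p = 0.0405), and leaving out populations gave 0 to 2, the 2 being Slc15a2 and Slc7a8 without LTHSC (1.63% of features). In LSK cells leaving out populations gave 0 to 1, the 1 being Slc15a2 without LTHSC (0.632% of features), and in the difference between stages 0. Between committed progenitors and LSK cells leaving out a population gave 50 members (without MEP, 24.8% of features) to 96 (without MPP, 45.7%). Between MEP and GMP it gave 62 (without CMP, 29.3% of features) to 70 (without LTHSC, 34.8%). Without the population as a block the genotype comparison called 0. The labels give no replicate numbers, so pairs were formed by population alone. MEP against GMP has no value without either. Probes near background, such as Slc1a7 and Slc6a15 in committed progenitors, show smaller changes than the RNA may have had. The comparisons without the +/+ MEP, the A/- GMP or the +/+ LTHSC array were chosen after seeing the data.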
